A study of Drosophila melanogaster with 12 samples.

Results

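The genes described here are the nuclear genes for the respiratory chain and ATP synthase of the fruit fly Drosophila melanogaster. They were chosen by name: every gene of the count table whose FlyBase symbol starts with ND-, COX, UQCR-, Sdh or ATPsyn and that does not lie on the mitochondrial genome. The rule found 88 of 17610 genes, which are 40 genes of complex I, 8 of complex II, 9 of complex III, 16 of complex IV and 15 of complex V. By their symbols, 63 are common subunits, 24 are like-named paralogs such as COX4L beside COX4, and 1, Sdhaf3, is an assembly factor of complex II. No measured value entered the rule.

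The respiratory chain sits in the inner mitochondrial membrane. Complex I takes electrons from NADH, complex II takes them from succinate, complex III passes them to cytochrome c, and complex IV passes them on to oxygen. Complexes I, III and IV pump protons, and complex V, the ATP synthase, uses the proton gradient to make ATP. Most subunits are encoded in the nucleus, and the genes for them are read at high levels in muscle, above all in flight muscle. In flies, many subunits have a diverged copy that is read mainly in the testis.

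RNA was sequenced from whole bodies of Oregon female flies in 4 groups of 3 libraries, each from flies fed for 3 days on a yeast medium with a green dye. The control medium was made with water. The other media were made with cisplatin, a platinum drug that binds DNA, with TiO2 (titanium dioxide) nanoparticles, or with both, here called the combination. The dose of each substance is given as 50 µg/ml in the treatment protocol and as 50 mg/ml in the sample titles, and no value below depends on it. The labels give neither the age of the flies nor how many made up a library. They do not say that the 3 libraries of a group came from separate cultures, so p-values measure only the spread between these libraries, which may be technical.

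Libraries held 26.8 M to 46.7 M counts. One library goes against its label. The combination library of replicate 2 held 1275 CPM (counts per M counts of a library, with M for mega, scaled by TMM) summed over 30 male and testis genes and 726 CPM over 9 genes of the male accessory gland and ejaculatory duct. The other 11 libraries held 0.684 to 5.85 CPM and 0.137 to 0.536 CPM of these lists. Genes of the mitochondrial genome took 16.7% of the counts in control replicate 1, 12.4% in combination replicate 2 and 6.20% to 9.45% in the other libraries. Most fold changes that these libraries move by over 1.5 times are therefore also given without them where they are described. In whole bodies, fewer cells of a type and less RNA per cell cannot be told apart.

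The common subunits rose and fell together from library to library, and they did so more by library than by group. Their summed level was 35238, 21196 and 11841 CPM in control replicates 1, 2 and 3. It was 13035, 12855 and 12874 CPM in the cisplatin libraries and 13374.5, 14845.5 and 13219 CPM in the TiO2 libraries. It was 11197, 29767 and 16849 CPM in the combination libraries. Controls and the combination thus held both the highest and the lowest libraries, and every single-treatment library lay between control replicates 3 and 2. Controls averaged 22758 ± 11777 CPM (SD, n = 3) and combination libraries 19271 ± 9519. The means after the single treatments, 12921 ± 99.0 CPM for cisplatin and 13813 ± 897 for TiO2, had much smaller spreads.

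**Figure D1:**
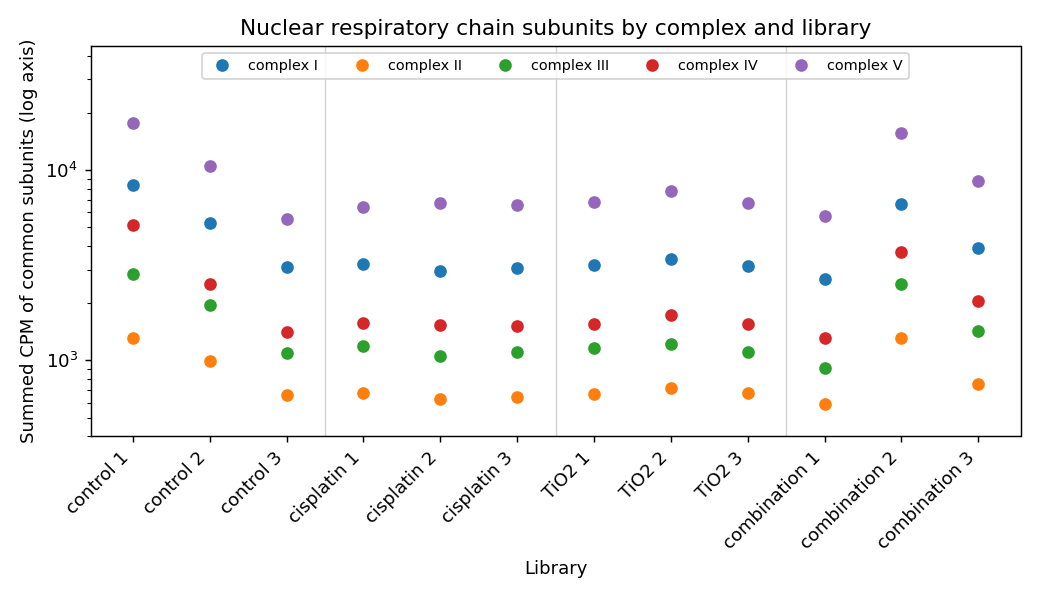
Summed CPM of the common subunits of each complex (y, log axis) in each of the 12 libraries (x), 1 point per complex and library. The 5 complexes keep the same order in every library, and for each of them control replicates 1 and 2 and combination replicates 2 and 3 are the 4 highest libraries.

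This order of libraries was shared by nearly all genes. Of the 61 common subunits with enough counts to be tested, 54 had control replicates 1 and 2 and combination replicates 2 and 3 above each of the other 8 libraries. Control replicate 1 was the highest library for 53 genes and combination replicate 2 for 6, and combination replicate 1 was the lowest for 50. Within the control group, 59 of the 61 genes stood in the order replicate 1, replicate 2, replicate 3. The highest library held 1.95 to 7.05 times the CPM of the lowest, with a median of 3.59 times. Among the other 8 libraries alone, the median of that ratio was 1.36.

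The complexes did not all span the same range. Control replicate 1 held 3.61 times the level of control replicate 3 for complex IV, 3.17 times for complex V, 2.69 times for complex I, 2.60 times for complex III and 1.98 times for complex II. The shares of the complexes in the summed level kept the same order in every library. Complex V took 47.0% to 52.5%, complex I 22.3% to 26.2%, complex IV 11.6% to 14.5%, complex III 8.08% to 9.25% and complex II 3.71% to 5.57%. The highest share of complex IV and the lowest share of complex II were both in control replicate 1.

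Levels between genes were compared per length of exon, as mean CPM per kb (1000 bases) over the 12 libraries. Complex V held the most abundant transcript, ATPsynC, which encodes the subunit of the membrane ring that turns as protons pass, at 1647 CPM per kb. ATPsynbeta, the catalytic subunit of the same enzyme, stood at 983 CPM per kb. The median common subunit stood at 406 CPM per kb in complex V, 294 in complex IV, 210 in complex III, 141 in complex II and 125 in complex I.

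The leading genes of the other complexes were COX5A at 677 CPM per kb, ND-MLRQ at 514, UQCR-C1 at 418 and SdhC at 148. COX5A encodes a nuclear subunit of cytochrome c oxidase, UQCR-C1 a core protein of complex III, and SdhC a membrane anchor of succinate dehydrogenase. ND-MLRQ is counted with complex I by its symbol, and its human counterpart is now placed with complex IV. At the other end stood ND-B8 of complex I at 12.8 CPM per kb, UQCR-11 at 69.4, ATPsyndelta at 77.0, SdhD at 120 and COX7C at 184. For 5 counted genes, ATPsyndelta among them, over 20% of the exon length is shared with a neighbouring gene, and the levels per kb are over the whole length.

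ATPsynC shows how the leading genes behaved across libraries. It was counted at 5516, 3250 and 1781 CPM in control replicates 1 to 3, at 2136, 2602 and 2456 CPM in cisplatin and at 2461, 2924 and 2474 CPM in TiO2. It stood at 2142, 5893 and 3285 CPM in the combination. COX5A stood at 1345, 609 and 352 CPM in control, at 401, 391 and 368 CPM in cisplatin, at 401, 443 and 373 CPM in TiO2 and at 342, 927 and 516 CPM in the combination. For both genes control replicate 3 lay below every single-treatment library and control replicate 1 above, so the groups overlapped. ATPsynC was one of the 6 common subunits that were highest in combination replicate 2 rather than in control replicate 1.

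The first comparisons set each treatment against control, and the question is how feeding each substance moved the chain genes. They share the 3 control libraries, so they are not independent of each other. Differences were tested with edgeR's quasi-likelihood test over all 11060 genes that passed the count filter, with Benjamini-Hochberg adjustment and a threshold of 0.05. Of the 88 genes, 67 were tested: the 61 common subunits, Sdhaf3 and 5 paralogs.

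After cisplatin all 61 common subunits had a log2 fold change below 0, but none passed the test. Over all genes 51.3% were below 0. In edgeR, 0 of the 67 genes were called (0% of all genes), and the smallest adjusted p was 0.270. Their median log2 fold change was -0.90, beside -0.03 over all genes. At an unadjusted p under 0.05, 33 of the 67 genes (49.3%) were lower, beside 15.0% of all genes. The libraries of the 2 groups did not overlap for 11 of the 67 genes (16.4%), all lower, beside 15.0% of all genes, so that share is near the background. Without control replicate 1 the median fell in size to -0.41, and without control replicate 3 it was -1.19.

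By complex, the median log2 fold change after cisplatin was -0.89 for complex I, -0.66 for complex II, -0.79 for complex III, -1.03 for complex IV and -1.003 for complex V. Without control replicate 1 these medians were -0.42, -0.38, -0.36, -0.40 and -0.49, and complex IV was no longer the lowest. At an unadjusted p under 0.05 in edgeR, 19 of 33 tested subunits were lower in complex I, beside 15.0% of all genes. In complexes II, III, IV and V the counts were 1 of 4, 1 of 5, 5 of 8 and 6 of 11. For complexes II and III that is 1 gene each, too few to tell from the share of all genes. Genes with separate ranges made up 16.4% of the 67 genes, near the 15.0% of all genes. They were ND-B14.5A, ND-13A, ND-51, ND-B14.7, ND-B12, ND-30, ND-24 and ND-B8 of complex I, SdhB and SdhC of complex II, and ATPsynCF6 of complex V.

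After TiO2 alone the picture was nearly the same. All 61 common subunits again had a log2 fold change below 0, beside 53.9% of all genes, and 0 of the 67 genes were called in edgeR (0% of all genes), with a smallest adjusted p of 0.300. The median log2 fold change was -0.83, beside -0.08 over all genes. At an unadjusted p under 0.05, 16 genes (23.9%) were lower, beside 12.8% of all genes. The ranges did not overlap for 6 genes that were lower (8.96%, beside 14.9% of all genes) and for 1 that was higher (11.3% of all genes). The higher one was the paralog COX6AL at 0.184 to 0.328 CPM in TiO2 and 0.110 to 0.179 CPM in control. It had 12, 6 and 6 counts in TiO2 and 3, 5 and 5 in control, so this separation rests on few counts. Without control replicate 1 the median was -0.36, and without control replicate 3 it was -1.15.

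The 2 members with the smallest p-values after each single treatment encode accessory subunits of complex I. ND-B14.5B (FBgn0031505, chromosome 2L, 3144953 to 3145848 in the coordinates of BDGP6.54) stood at 290.1, 161 and 70.0 CPM in control replicates 1 to 3. It stood at 70.4, 49.0 and 53.9 CPM in cisplatin, at 63.9, 58.8 and 59.2 CPM in TiO2 and at 41.2, 161 and 91.1 CPM in the combination. The lowest control lay just below the highest cisplatin library and above all TiO2 libraries. The log2 fold change was -1.59 ± 0.52 (SE) after cisplatin and -1.52 ± 0.52 after TiO2, with adjusted p-values of 0.270 and 0.300 in edgeR. Without control replicate 1 the changes were -1.01 and -0.95.

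ND-B12 (FBgn0034645, chromosome 2R, 21658078 to 21658777), also an accessory subunit of complex I, stood at 312, 159.6 and 74.6 CPM in control. It stood at 71.1, 59.0 and 64.0 CPM in cisplatin and at 70.8, 70.2 and 69.8 CPM in TiO2. All 6 single-treatment libraries lay below all 3 controls, the nearest of them by less than the spread within cisplatin. The log2 fold change was -1.49 ± 0.51 (SE) after cisplatin and -1.37 ± 0.51 after TiO2, with the same adjusted p-values in edgeR. They were -0.87 and -0.75 without control replicate 1.

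SdhC (FBgn0037873, chromosome 3R, 11208887 to 11209849) had the smallest p-value outside complex I after TiO2. It stood at 324, 194 and 105 CPM in control, at 99.9, 85.5 and 88.4 CPM in cisplatin and at 99.1, 99.1 and 90.9 CPM in TiO2. In the combination it stood at 77.5, 225 and 119 CPM. The single-treatment libraries lay below all controls, while the combination libraries overlapped the controls. The log2 fold change was -1.19 ± 0.42 (SE) after cisplatin and -1.11 ± 0.42 after TiO2, with adjusted p-values of 0.270 and 0.300 in edgeR. Leaving out control replicate 1 gave -0.73 and -0.65.

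The combination had a smaller median difference from control, and both groups held high and low libraries. In edgeR, 0 of the 67 genes were called (0% of all genes), with a smallest adjusted p of 0.600. The median log2 fold change was -0.33, beside 0.05 over all genes, and 59 of the 61 common subunits were below 0, beside 45.1% of all genes. No gene had separate ranges, where 1.76% of all genes were separate upward and 5.06% downward. At an unadjusted p under 0.05, 3 genes were higher, the paralogs COX6AL, COX4L and UQCR-6.4L (3.27% of all genes). Each of these 3 was far higher in combination replicate 2 than in any other library. The direction hung on single libraries: without control replicate 1 the median was 0.14, and without combination replicate 2 it was -0.80.

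Of the common subunits, ND-B14.5A, another accessory subunit of complex I, had the smallest p-value in the combination against control. It stood at 196, 103 and 56.5 CPM in control and at 38.0, 109.954 and 63.6 CPM in the combination, so the ranges overlapped widely. Its log2 fold change was -0.75 ± 0.44 (SE), with an adjusted p of 0.888 in edgeR.

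**Figure D2:**
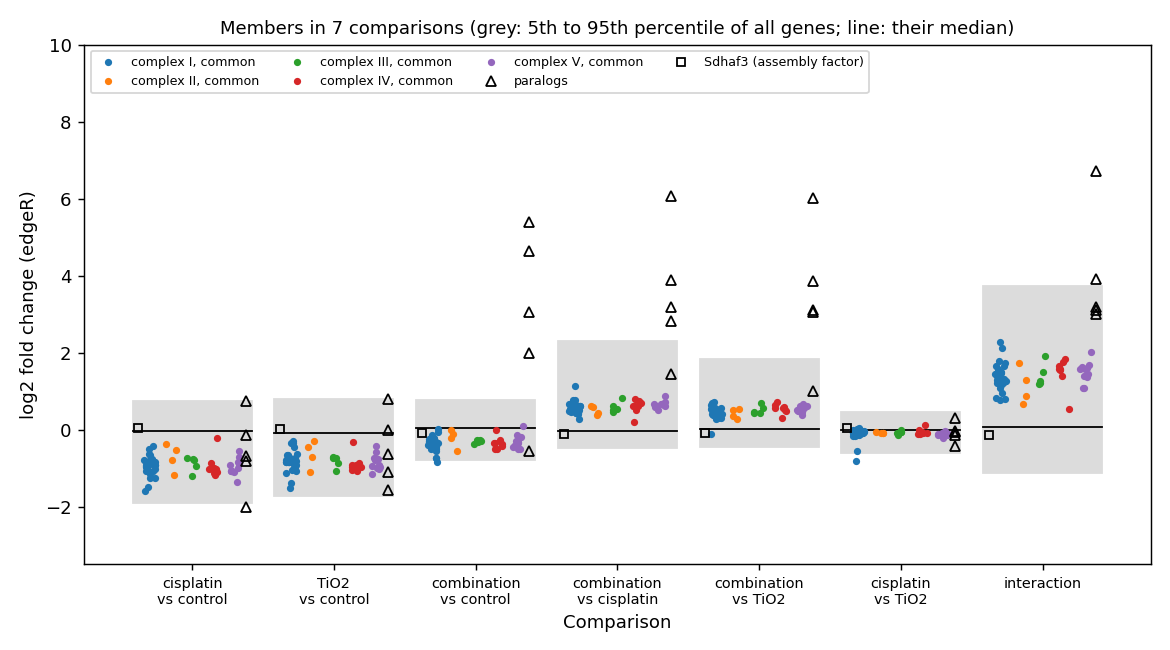
Log2 fold change from edgeR (y) of each tested gene in 7 comparisons (x); filled points are common subunits by complex, triangles the 5 tested paralogs and squares Sdhaf3, with the 5th to 95th percentile of all genes in grey and their median as a line. The common subunits lie below the line for cisplatin and for TiO2 against control and above it for the interaction, within or near the grey band. Wherever the combination is compared, 4 paralogs lie above all common subunits, and for the interaction some of them lie within the grey band.

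Against each single treatment, the combination had the higher means. Its median log2 fold change over the 67 genes was 0.60 against cisplatin and 0.51 against TiO2, beside -0.04 and 0.02 over all genes. The value was above 0 for 66 of the 67 genes against cisplatin (47.2% of all genes) and for 65 against TiO2 (51.0% of all genes). In edgeR, 0 genes were called in either comparison (0% of all genes in both), with smallest adjusted p-values of 0.334 and 0.617. At an unadjusted p under 0.05, 5 genes were higher than in cisplatin (13.4% of all genes) and 4 were higher than in TiO2 (6.58% of all genes). These were COX4L, COX6AL, UQCR-11L and UQCR-6.4L in both, and ND-B8 against cisplatin. The 4 paralogs were far higher in combination replicate 2, the library with the male transcripts, than in any other library. No gene had separate ranges in either comparison, where 7.57% of all genes were separate upward and 7.82% downward against cisplatin, and 4.23% and 2.33% against TiO2. Without combination replicate 2 the medians were 0.11 and 0.04.

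Cisplatin and TiO2 were the closest pair. In edgeR, 0 of the 67 genes were called (0% of all genes), no gene reached an unadjusted p under 0.05 (0.316% of all genes did upward and 0.181% downward), and the median log2 fold change was -0.08, beside 0.00 over all genes. The sign was shared all the same: 58 of the 61 common subunits were lower in cisplatin, beside 49.6% of all genes. Ranges were separate for 8 genes (11.9%), all lower in cisplatin, beside 5.24% of all genes. They were ND-13A, ND-B14, ND-49, ND-20, COX6B, COX7AL2, ATPsynG and ATPsyndelta, named after their values were seen.

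The interaction asks whether the combination differed from the sum of the 2 single changes on the log2 scale. It adds the control and combination means and subtracts the cisplatin and TiO2 means, so that control replicate 1 and combination replicate 2 both enter with a positive sign. The median over the 67 genes was 1.44, beside 0.07 over all genes, and it was above 0 for all 61 common subunits, beside 51.8% of all genes. In edgeR, 0 genes were called (0% of all genes), with a smallest adjusted p of 0.129. At an unadjusted p under 0.05, 54 genes (80.6%) were positive, beside 26.7% of all genes. Leaving out control replicate 1 lowered the median to 0.91, leaving out combination replicate 2 lowered it to 0.93, and leaving out both lowered it to 0.51.

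Among members with a mean level of at least 5 CPM, COX7AL2, ND-B14.5B and ND-B12 had the smallest p-values for the interaction, at 3.01 ± 0.95, 2.28 ± 0.73 and 2.12 ± 0.71 (log2, SE), each with an adjusted p of 0.129 in edgeR. Without control replicate 1 and combination replicate 2 together these values were 1.37, 1.20 and 0.97. The other 4 tested paralogs, COX4L, UQCR-11L, UQCR-6.4L and COX6AL, had values of 3.11 to 6.72, and of -0.89 to 1.46 without combination replicate 2. DESeq2 called 6 members for the interaction, COX7AL2, ND-B14.5B, ND-B12, ND-15, SdhC and ATPsynG, beside 13.9% of all genes called as positive. Without control replicate 3, edgeR called 36 genes as positive (13.9% of all genes), and without combination replicate 1 it called 37 (22.1% of all genes). Leaving out any of the other 10 libraries gave 0 calls.

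The other tools gave different counts. DESeq2 called 0 of the 67 genes in each of the 6 pairwise comparisons. Of all genes it called 1.84% for cisplatin, 2.60% for TiO2 and 0.425% for the combination against control, 0.344% for the combination against cisplatin, 0.0271% for it against TiO2 and 0% for cisplatin against TiO2. A fit by limma voom that weights libraries by their quality called 60 genes lower after cisplatin (36.4% of all genes), 59 lower after TiO2 (36.0%) and 44 lower in the combination (27.8%). In that fit the 1 gene called higher in the combination than in control was Sdhaf3 (30.6% of all genes). A fit with the main axis of variation within groups as a covariate called 61 genes lower after cisplatin (26.8% of all genes). It called 58 lower after TiO2 (25.1%) and 2, SdhC and ND-30, lower in the combination (2.23%). That axis was taken from these same 12 libraries and takes up part of their spread. The quality weights were also estimated from these libraries. The p-values of both fits may therefore be too small. Against cisplatin, the combination was called higher for 27 genes with weights (14.9% of all genes) and for 45 with the covariate (17.9%). Against TiO2 it was called higher for 0 genes with weights (2.21% of all genes) and for 22 with the covariate (13.6%). The interaction was called positive for 61 and 59 genes (34.7% and 30.5%), and cisplatin against TiO2 gave 0 calls in both fits.

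The authors' deposited tables, which have the columns of DESeq2, also called none of the members. In the authors' deposited tables the smallest adjusted p of a member was 0.0978 for cisplatin, 0.0602 for TiO2 and 0.264 for the combination. The share of all genes called in the authors' deposited tables was 0.878%, 4.03% and 0.484%.

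A few common genes did not follow the shared order. ND-B8 (FBgn0040705, chromosome 2L, 4454626 to 4455207), an accessory subunit of complex I, was highest in control replicate 3, the lowest control for nearly all others. It stood at 5.86, 7.03 and 10.2 CPM in control, at 1.95, 5.78 and 1.94 CPM in cisplatin, at 7.25, 4.76 and 4.95 CPM in TiO2 and at 8.65, 7.43 and 4.98 CPM in the combination. The cisplatin libraries of replicates 1 and 3 lay well below the rest, and replicate 2 lay among them. Its log2 fold change was -1.26 ± 0.46 (SE) after cisplatin and 1.12 ± 0.46 in the combination against cisplatin, with adjusted p-values of 0.270 and 0.334 in edgeR.

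Sdhaf3, the assembly factor, hardly moved. It stood at 13.3, 10.2 and 13.6 CPM in control, at 13.9, 13.0 and 11.4 CPM in cisplatin and at 11.1, 13.6 and 12.8 CPM in TiO2. In the combination it stood at 13.2, 8.89 and 12.9 CPM, so its lowest library was one of the 2 highest for the subunits. The subunit SdhA, the flavoprotein of complex II, spanned a factor of 2.06 over the libraries and SdhB a factor of 1.95, the smallest of the common genes.

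ND-AGGG, an accessory subunit of complex I, stood at 89.7 CPM in TiO2 replicate 2, beside 52.6 and 38.5 CPM in the other TiO2 libraries. Its cisplatin libraries stood at 37.8, 44.2 and 40.0 CPM, below that library. Its log2 fold change in cisplatin against TiO2 was -0.57 ± 0.42 (SE), with an adjusted p of 1.00 in edgeR, and -0.15 without TiO2 replicate 2.

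The paralogs had another pattern. Of the 24, 22 were highest in combination replicate 2, the library with the male transcripts. In that library their counts ran from 28 for ATPsynepsilonL to 1156 for COX4L and 1259 for SdhBL, while the highest count of any of the 22 in any other library was 20. Summed over the 22 genes, that library held 8956 counts, and the other 11 libraries held 38 to 99 counts each. On the CPM scale this was 272 CPM beside 1.04 to 2.67 CPM. ND-20L, with 100 counts there, and UQCR-14L, with 185, were at 0 in all other libraries.

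**Figure D3:**
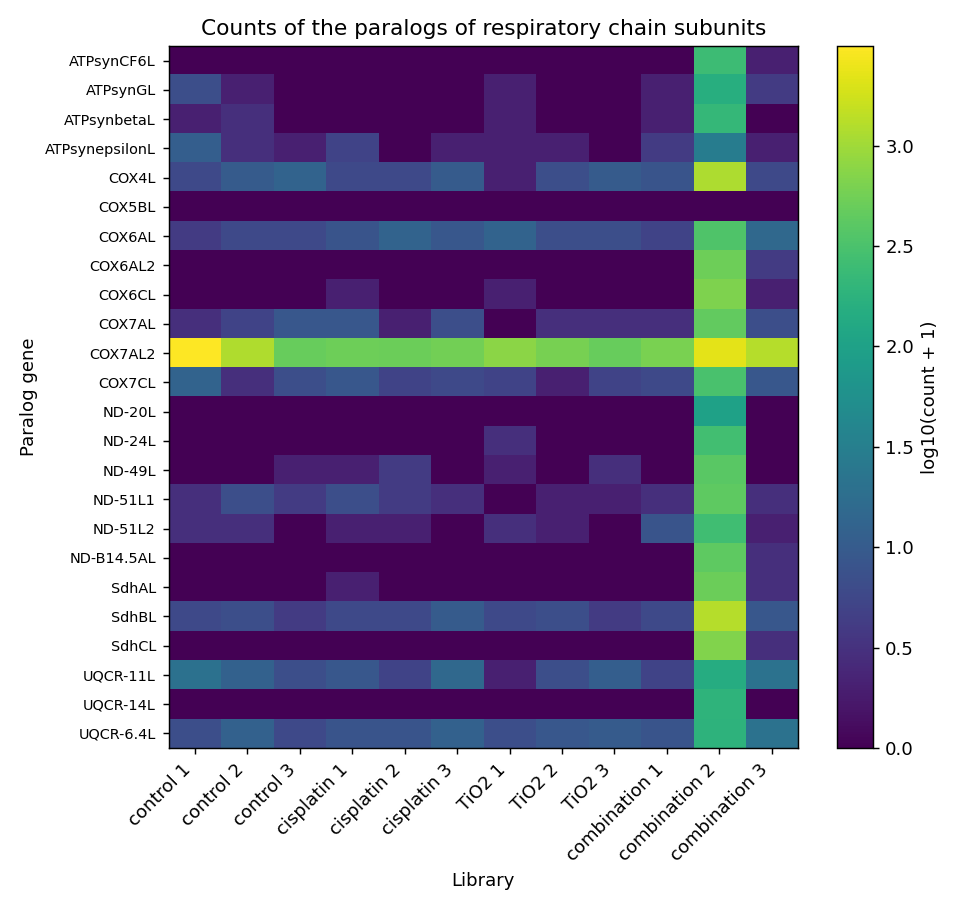
Counts of the 24 paralogs (rows) in the 12 libraries (columns), as log10(count + 1). The column of combination replicate 2 is bright for 22 paralogs, COX7AL2 is bright in every library, and COX5BL is at 0 in all.

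Within combination replicate 2, the copies were minor beside their common partners. For 21 pairs with counts for both, leaving out COX7AL2, the paralog made up 0.196% (ATPsynbetaL) to 11.0% (ND-B14.5AL) of the pair per length, with a median of 3.49%. COX7AL2, which is not of the 22, made up 20.4% of its pair with COX7A. COX4L made up 8.79% of its pair, SdhBL 8.28% and UQCR-11L 8.22%. Of the 22 paralogs highest in that library, 6 belong to complex I, 3 to complex II, 3 to complex III, 6 to complex IV and 4 to complex V. ATPsynepsilonL was put among the paralogs after the data were seen, since its partner carries another name, sun.

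Only 5 paralogs passed the count filter, and 4 of them did so with 1 library far above the rest. COX4L stood at 35.1 CPM in combination replicate 2 and at 0.0274 to 0.335 CPM elsewhere. Its log2 fold change in the combination against control was 5.39 ± 1.85 (SE), with an adjusted p of 0.600 in edgeR. COX6AL at 10.5 CPM, UQCR-6.4L at 5.58 CPM and UQCR-11L at 4.43 CPM in that library had no more than 0.696 CPM in any other. Their fold changes against control, 4.65, 3.05 and 2.00 on the log2 scale, rest on that 1 library. Without it the values were -0.85 for COX4L, 0.65 for COX6AL, 0.44 for UQCR-6.4L and -0.47 for UQCR-11L. In that library an effect of the combination and the presence of male transcripts cannot be told apart.

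COX7AL2 (FBgn0085201, chromosome 2L, 2192525 to 2197912), named as a copy of the complex IV subunit gene COX7A, was the exception. It stood at 114.8, 43.4 and 13.1 CPM in control, at 11.5, 14.3 and 17.0 CPM in cisplatin and at 21.3, 18.6 and 18.0 CPM in TiO2. In the combination it stood at 16.7, 68.7 and 30.9 CPM. It followed the order of the common subunits with a wider swing, 8.75-fold between control replicates 1 and 3, where COX7A itself swung 2.18-fold. Its log2 fold change was -2.001 ± 0.68 (SE) after cisplatin and 1.44 ± 0.67 in the combination against cisplatin, with adjusted p-values of 0.270 and 0.352 in edgeR. Single libraries moved both values: the first was -0.99995 without control replicate 1 and the second 0.74 without combination replicate 2.

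Muscle transcripts were high in the libraries where the common subunits were high. A list of 18 muscle genes, such as those for myosin and flight muscle actin, summed to 49308, 32070 and 7279 CPM in control and to 5208, 9012 and 10251 CPM in cisplatin. It summed to 14628, 13651 and 8603 CPM in TiO2 and to 6079, 60748 and 19935 CPM in the combination. The 4 libraries highest in muscle genes were the 4 highest in respiratory chain genes, and no muscle gene of the list was at 0 in all libraries. The median log2 fold change of the muscle list was -1.86 after cisplatin, -1.23 after TiO2, -0.05 in the combination and 3.07 for the interaction. Without control replicate 1 these medians were -1.18, -0.60, 0.54 and 2.47, and without combination replicate 2 the last 2 were -1.19 and 1.93. Its part in the values above was not tested.

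A list of 14 ovary genes, among them those for the egg shell, was low in control replicate 1 and combination replicate 2. It summed to 4913, 11381 and 9559 CPM in control and to 21645, 13139 and 18745 CPM in cisplatin. It summed to 3100, 13623 and 16273 CPM in TiO2 and to 8517, 2644 and 6581 CPM in the combination. The cisplatin libraries held 3 of the 5 highest ovary sums, and combination replicate 2 and TiO2 replicate 1 the lowest. TiO2 replicate 1 had few ovary transcripts without being high in chain genes. Its part in the values above was not tested either.

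**Figure D4:**
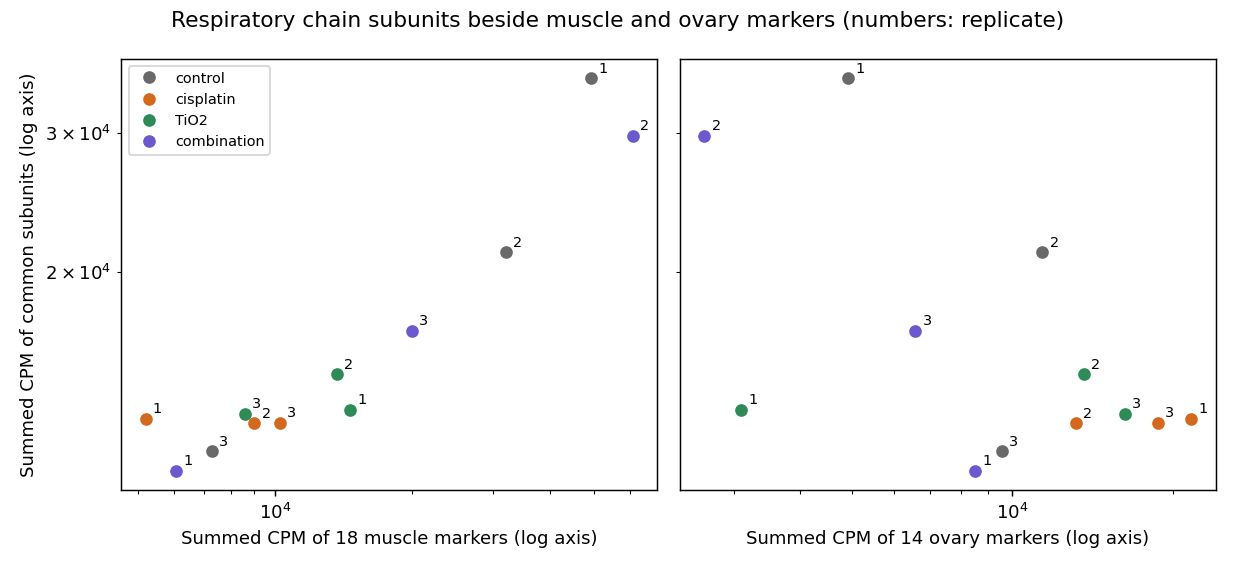
Summed CPM of the common subunits (y, log axis) against summed CPM of 18 muscle genes (left) and 14 ovary genes (right), both on log axes; each point is 1 library, coloured by group and numbered by replicate. The 4 libraries highest for the chain lie at the right of the muscle panel, and control replicate 1 and combination replicate 2 lie at the left of the ovary panel together with TiO2 replicate 1.

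Other mitochondrial genes showed how far the pattern reached. Of 13 chain genes whose symbols fall outside the rule, 12 were tested, and edgeR called 0 in any comparison, with 6 lower and 1 higher after cisplatin at an unadjusted p under 0.05 (15.0% and 3.27% of all genes) and 2 lower after TiO2 (12.8% of all genes). Their median log2 fold change was -0.97 after cisplatin and 1.47 for the interaction, beside -0.90 and 1.44 for the members. Leaving out control replicate 1 gave -0.32 and 0.88. Cyt-c-p, the cytochrome c of body cells, was at -1.50 ± 0.63 (SE) after cisplatin and RFeSP, the iron-sulfur protein of complex III, at -1.003 ± 0.42, with an adjusted p of 0.270 in edgeR for both. They were at -0.64 and -0.56 without control replicate 1. The assembly factors Bcs1, at 0.41 ± 0.18, Scox, at 0.15 ± 0.15, and Surf1, at 0.09 ± 0.20, were on the other side of 0. Another assembly factor of the list, CIA30, was below 0, at -0.43. Without control replicate 1, Surf1 was at 0.27 and CIA30 at -0.25.

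The 13 tested genes of the citric acid cycle, which feeds complexes I and II, had medians of -0.58 after cisplatin, -0.41 after TiO2 and 1.01 for the interaction. In a list of 8 carriers and regulators the medians were 0.27, 0.25 and -0.50, with the ADP/ATP carrier sesB at -0.90 ± 0.45 (SE) after cisplatin and the regulators srl and Ets97D at 0.80 ± 0.50 and 0.71 ± 0.45. Without control replicate 1 the cycle stood at -0.29, -0.23 and 0.69, sesB at -0.37, srl at 0.44 and Ets97D at 0.46. Without control replicate 3 the cycle stood at -0.69 after TiO2, srl at 1.42 after cisplatin and Ets97D at 1.21. Without combination replicate 2 the cycle stood at 0.53 for the interaction. The 13 protein genes of the mitochondrial genome summed to 90785, 41654 and 33111 CPM in control and had medians of -0.74 after cisplatin, -0.85 after TiO2 and 1.23 for the interaction. These were -0.17, -0.28 and 0.63 without control replicate 1. In edgeR, 0 genes of these lists were called in any comparison. At an unadjusted p under 0.05, 0 genes of the citric acid cycle and 0 carriers and regulators differed from control after either single treatment. Of the 13 mitochondrial genes, 4 were lower after cisplatin (15.0% of all genes) and 7 after TiO2 (12.8% of all genes).

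Transcript length moved with the levels as well. In control replicate 1 the common subunits stood a median of 1.64 above the median library (log2 scale) where exons summed to at most 1000 bases (40 genes), and 1.21 above it where they were longer (21 genes). All tested genes of these lengths stood at 0.60 and -0.07. In combination replicate 2 the members stood at 1.20 and 1.04, and all genes at 0.33 and -0.03. In control replicate 2 they stood at 0.67 and 0.66, and all genes at 0.23 and -0.04. Common subunits were short, with a median of 853 bases beside 1736 for all nuclear protein-coding genes. In all 3 libraries their median was above the median of all genes of the same length class. Other genes stood higher still. For all genes of at most 1000 bases, the 90th percentile was 2.19 in control replicate 1, 1.47 in control replicate 2 and 2.53 in combination replicate 2. The part of length in the values above was not tested.

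**Figure D5:**
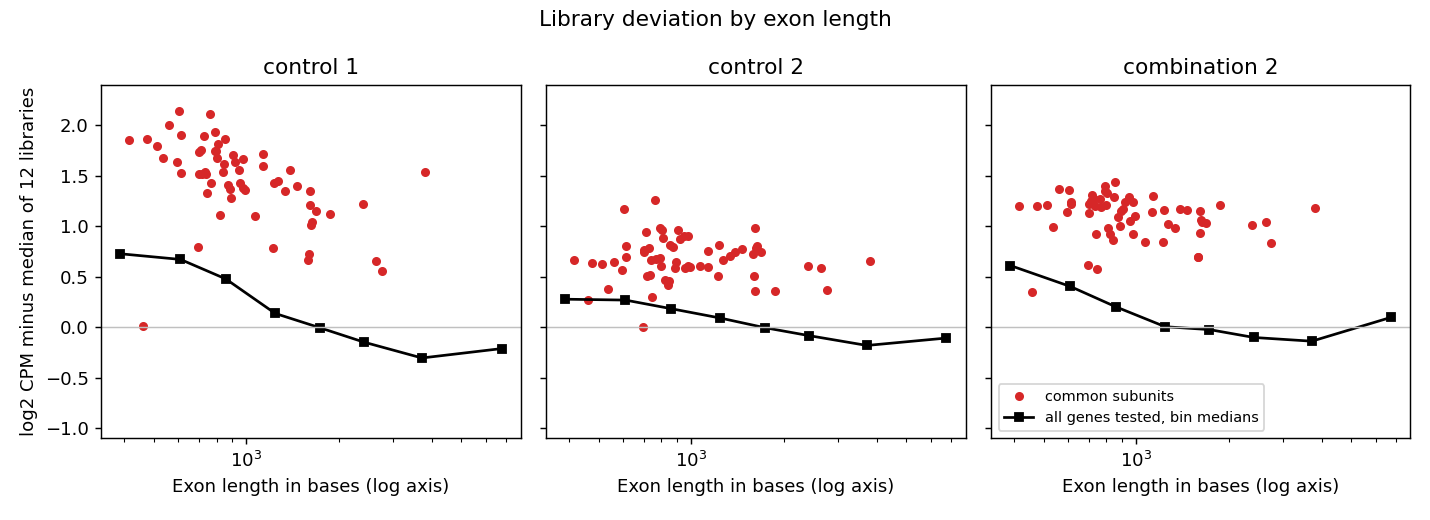
Log2 CPM minus the median of the 12 libraries (y) against summed exon length in bases (x, log axis) in 3 libraries; red points are common subunits and black squares the medians of all tested genes in length bins. Short genes stand high in control replicate 1, and nearly all common subunits lie above the black line in all 3 panels.

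For 3 of the 88 genes, no library had a count. They were the complex I gene ND-MNLL, the complex III gene UQCR-14 and the paralog COX5BL, and they are the 3 members whose exons lie wholly within those of another gene. ND-MNLL (chromosome X, 7893053 to 7893798) lies within CG45089 on the same strand, which is at 0 too. UQCR-14 (chromosome X, 16286288 to 16286988) lies opposite CG32576, which had 299 to 604 counts, and COX5BL (chromosome 2L, 6559431 to 6560133) opposite Trmt6, which had 616 to 1726. The strand setting of the counting is not given, and whether reads were lost to the overlaps was not tested. These zeros therefore cannot be read as absence of transcription. Counting both strands together, partial overlap above 20% of the exon length touched 5 more, ND-B22, ND-MWFE, UQCR-6.4, COX6AL2 and ATPsyndelta.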

How the data were processed

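RNA-seq counts of 12 libraries (4 groups of 3, mapped by the sample descriptions) were used. The authors deposited raw counts per gene, with the columns of a featureCounts table per the file headers, and 3 tables of log2 fold changes with p-values, which were used for calls and medians only. The submitters' processing notes name FastQC, Trimmomatic, BWA, SAMtools and HTSeq. Build, strand setting and versions are not given in the sources used here. Libraries were made with a stranded mRNA kit, per the labels' protocols. All 88 members have the coordinates of the annotation BDGP6.54, which gave symbols and exon overlaps.

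The main test was edgeR 4.0.16 (R 4.3.3): filterByExpr on the 4 groups, TMM, and 1 quasi-likelihood fit of 4 group means to all libraries, with 7 comparisons and Benjamini-Hochberg adjustment over 11060 genes. The SE is the log2 fold change over the square root of its F. The procedure was run on simulated counts with the same dispersion for all genes and no deviant libraries. That setting differs from these data, so the run does not show how the test behaves on them. CPM use TMM-scaled totals of the genes kept, and deviations add a prior count of 2. Libraries held 26.8 M to 46.7 M counts, and a count of 0 allows up to 3 counts (counting error only).

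Where no member passed, the rule named the 3 with the smallest p-value, given a mean level of 5 CPM or more. Alternatives were other scalings, no filter, DESeq2 1.42.0, limma 3.58.1 (voom), a within-group covariate, a replicate block, 2 groups only and each library left out. The members, lists and tests were chosen with earlier results of these data known.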

Additional observations from a re-analysis of the deposited data

How the results depend on the processing

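Other scalings, no count filter, fits of 2 groups only and the replicate block left 0 members called in every comparison. Quality weights or the within-group covariate moved the counts of called members to 60 or 61 for cisplatin and 59 or 58 for TiO2. For the combination they were 45 (44 lower and 1 higher) or 2. They were 27 or 45 against cisplatin, 0 or 22 against TiO2, and 61 or 59 for the interaction, where DESeq2 called 6. Leaving out 1 library gave 0 to 37 calls for the interaction and 0 elsewhere. Such counts are to be read beside the shares of all genes called in the same fits, which are given above. Median log2 fold changes ran from -1.19 to -0.41 for cisplatin, -1.15 to -0.36 for TiO2, -0.80 to 0.14 for the combination, 0.11 to 0.87 against cisplatin, 0.037 to 0.79 against TiO2, -0.10 to -0.033 for cisplatin against TiO2 and 0.91 to 1.74 for the interaction. Leaving out control replicate 1 and combination replicate 2 together, chosen after seeing the data, gave 0.14, 0.065 and 0.51 for the combination against cisplatin, against TiO2 and for the interaction. For the members named by rule, 422 of 459 values kept their side of the threshold and their direction, and 37 passed it. The causes were not tested.

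Of 18 same-numbered pairs of libraries, 6 correlated above 0.1 in their deviations from the group mean (r from -0.74 to 0.468). Differently numbered pairs ran from -0.735 to 0.836. Deviations from a mean of 3 libraries sum to 0 within a group. These values therefore cannot decide whether the numbers pair the samples. With the replicate block, 0 members were called and the medians were -0.85 for cisplatin, -0.78 for TiO2, -0.31 for the combination, 0.56 against cisplatin, 0.48 against TiO2, -0.07 for cisplatin against TiO2 and 1.37 for the interaction.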

Other observations

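The paralogs also differed from the common subunits in their position and structure. On the X chromosome lay 1 of the 24 paralogs (4.17%), SdhBL, and 12 of the 63 common subunits (19.0%), beside 15.7% of 13965 nuclear protein-coding genes. Of the 24 paralogs, 17 lay on another chromosome arm than their partner. In the annotation 6 paralogs (25.0%) had a single exon, ND-24L, ND-51L1, ND-B14.5AL, SdhAL, UQCR-14L and COX6AL, beside 0 of the common subunits and 15.2% of all nuclear protein-coding genes. These shares were not tested.

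Among the 8 carriers and regulators, Ant2, which like sesB exchanges ADP for ATP, had the highest log2 fold change in the combination against control, and 1 library set it. Ant2 stood at 33.4 CPM in combination replicate 2, the library with the male transcripts, and at 1.46 and 2.56 CPM in the other combination libraries, beside 3.59, 2.89 and 1.69 CPM in control. Its log2 fold change was 2.19 ± 0.95 (SE), with an adjusted p of 0.672 in edgeR, and -0.43 without that library. For sesB it was -0.12 ± 0.45, with an adjusted p of 0.970 in edgeR. The sesB value also moved with single libraries, to -0.64 when combination replicate 2 was dropped. Dropping control replicate 1 gave 0.41 for sesB, and dropping replicate 3 of that group gave -0.47. The part of the male transcripts in the Ant2 value was not tested.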
